A study of Rattus norvegicus with 48 samples.

Results

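The 7 genes described here belong to the amino acid stress response, and their mRNAs were counted in cerebral endothelial cells (CECs), the cells that line brain blood vessels and form the blood-brain barrier, after rats had been fasted. They are the transcription factors Atf4, Atf3, Atf5 and Atf6, and the enzyme genes Asns, Aars and Cars. The genes are listed by name, by a rule that holds no threshold on a measured value, and all 7 were among the 13050 genes tested.

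When amino acids run short, uncharged tRNA activates a kinase that phosphorylates the translation factor eIF2α, which lowers protein synthesis in general and raises translation of the Atf4 mRNA. The ATF4 protein then enters the nucleus and activates genes for amino acid synthesis (Asns, asparagine synthetase), for loading amino acids on tRNA (Aars and Cars, the alanyl- and cysteinyl-tRNA synthetases) and for other stress factors (Atf3, Atf5). ATF6 belongs to a neighbouring branch, as a membrane protein of the endoplasmic reticulum that is cleaved when unfolded proteins accumulate. Since ATF4 and ATF6 are controlled largely at the level of the protein, the mRNA counts given here do not measure their activity.

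Male Wistar-Han rats had food ad libitum (AL) or were fasted for 1 day (F1), 2 days (F2) or 3 days (F3). Cortices of several rats were pooled for each cell preparation and digested with enzymes, microglia were depleted on CD11b, and CECs were retained on CD31. Each group had 3 samples from independent experiments, named i, j and k, and each sample had 4 technical replicates, which were summed. All groups were of one sex and strain, and pooling leaves no measure of the spread between single rats.

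Between 20718644 and 25960874 reads were assigned to genes in a sample. The endothelial marker Pecam1 (CD31) was detected at a mean of 34031 normalized counts, and no marker of pericytes, microglia, astrocytes or red blood cells was called in F1, F2 or F3 against AL, of the 11 that could be tested. For neurons and oligodendrocytes no listed marker had an identifier in the incomplete symbol lists used, so none could be tested and their levels are unknown here. Sample F2 j stood apart. Its counts differed from those of F2 i and F2 k by a chi-square of 48.8 and 51.5 per degree of freedom, whereas the other pairs within a group gave 9.75 to 24.8, so the differences in which it changed a value most are also given without it. One technical replicate (d) of F1 k carried labels in conflict, with the 2 days fast in one field and F1 in its title. It was kept in F1, and its counts differed from the other technical replicates of that sample by a chi-square of 1.00 per degree of freedom (p = 0.427).

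The promoters of Aars and Cars are shown first, because these genes gave the most similar pattern among the 7 and both held the letters bound by ATF4 together with C/EBP proteins. RefSeq promoters of rat build GRCr8, from 250 bases before to 50 bases after a start site, were found for 5 of the 7 genes, namely Atf4, Atf5, Asns, Aars (Aars1 in RefSeq) and Cars (Cars1). The amino acid response motif TGATGNAA, read on both strands (TTNCATCA on the other), occurred in 3.98% of 33469 such promoters and in 2 of these 5. In Aars it was found at positions -112 to -105 and again at 10 to 17 from the start site, and in Cars at 18 to 25, all on the strand opposite to the gene. Each sequence runs 5′ to 3′ along its gene from 250 bases before to 30 bases after the start site, with the motif in capitals. The Aars window lies at chr19:55908232-55908511 on the plus strand and the Cars window at chr1:208225340-208225619 on the minus strand.
Aars promoter: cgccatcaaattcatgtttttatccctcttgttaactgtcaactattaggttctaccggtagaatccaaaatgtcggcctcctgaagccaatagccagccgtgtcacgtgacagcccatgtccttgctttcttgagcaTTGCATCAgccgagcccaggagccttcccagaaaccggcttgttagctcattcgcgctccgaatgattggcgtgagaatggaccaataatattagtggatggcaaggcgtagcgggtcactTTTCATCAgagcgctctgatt
Cars promoter: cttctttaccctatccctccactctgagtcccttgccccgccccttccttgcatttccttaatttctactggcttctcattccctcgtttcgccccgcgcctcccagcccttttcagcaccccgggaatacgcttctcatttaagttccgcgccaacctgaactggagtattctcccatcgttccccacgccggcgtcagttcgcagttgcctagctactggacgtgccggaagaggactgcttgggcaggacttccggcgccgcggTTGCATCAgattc

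Atf5 held a match to the AP-1 motif TGANTCA, at -138 to -132, which 7.33% of all promoters held, and the CRE motif TGACGTCA (1.83% of all promoters) was not found in the 5 windows. The windows of Atf5, Asns and Aars lie wholly inside the bounds of their genes, so the start sites used for them are not the outermost ones. The Cars window reaches past the outer bound of its gene, at 208225425 on the minus strand. Its start site lies inside that bound and is not the outermost one either. Aars begins at 55906694 (plus strand) and Atf5 at 104437611 (minus strand), while the Atf5 window lies at chr1:104434746-104435045. Asns begins at 36769970 (minus strand), while its window lies at chr4:36769366-36769665. The bases before the outermost start sites of Atf5, Asns and Aars were not searched, so a motif there would have been missed. The letters of a motif describe the sequence and do not show that a factor binds there.

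Counts were scaled to a common library size by the TMM method, and the resulting normalized counts can be compared between samples but not between genes, since they were not divided by transcript length. Differences were tested with the quasi-likelihood test of edgeR and are given as Log2 fold change (LFC) ± standard error (SE), with p-values adjusted over all 13050 genes, and a gene was called at an adjusted p of at most 0.05. The comparisons of F1, F2 and F3 against AL share the AL samples. In bulk RNA, a change in the share of a cell type and a change in RNA per cell cannot be told apart.

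After 3 days Cars was higher and Atf3 was lower than in AL, so 2 of the 7 were called, where 12% of all genes were called. None of the 7 was called after 1 day, where 6.56% of all genes were called, or after 2 days, where 0.858% were called. The median LFC of the 7 genes was 0.14, 0.06 and 0.10 in F1, F2 and F3 against AL, where that of all genes tested was -0.0043, -0.0085 and -0.0053. In F3 the median of the 7 was the LFC of Asns, which had 4 to 11 reads in the F3 samples. The median absolute LFC of all genes tested was 0.158, 0.131 and 0.177 in the same comparisons. The joint test of the 4 groups called Cars, 1 of the 7, beside 10.1% of all genes.

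**Figure D1:**
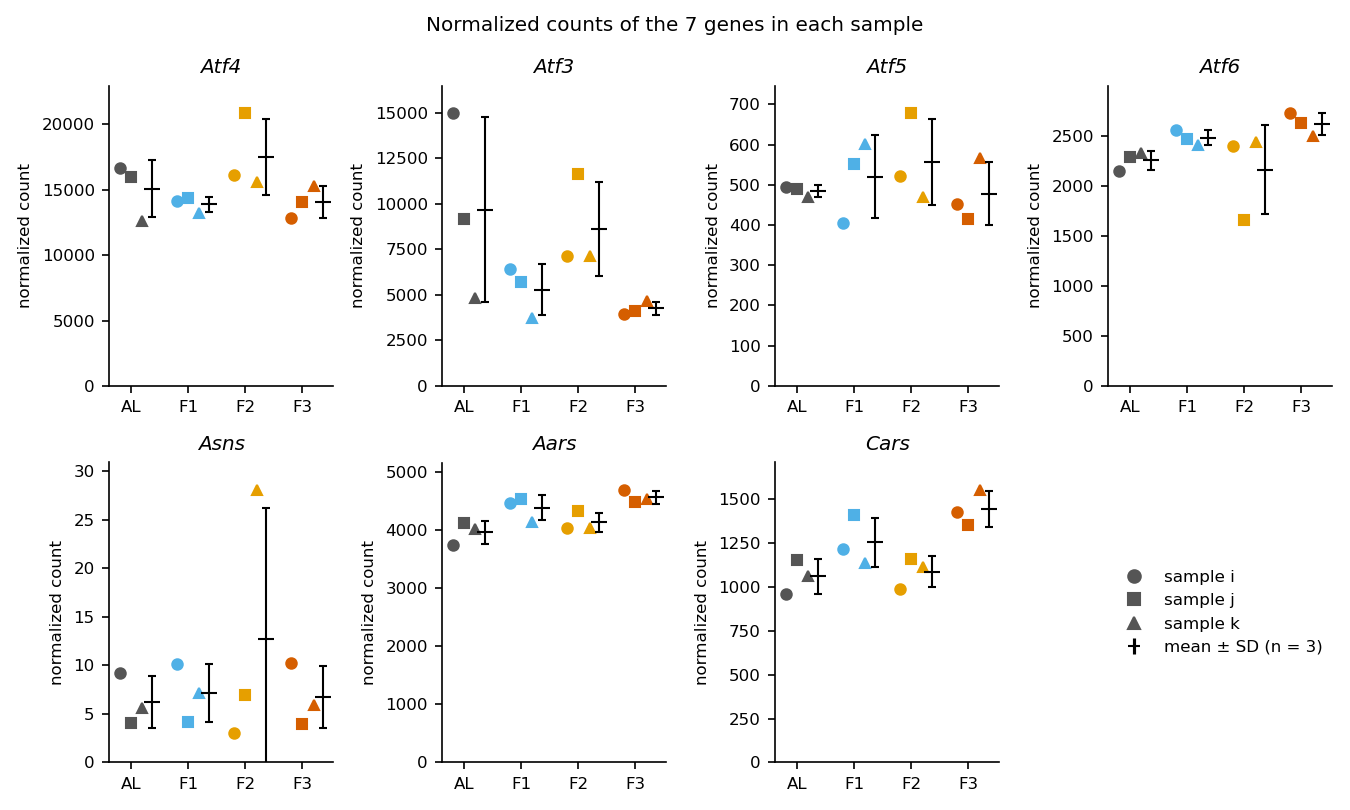
Normalized counts (vertical axes, linear and starting at 0) of the 7 genes in the 12 samples by group (horizontal axes), with symbols for samples i, j and k and bars for the mean ± SD of 3 samples, the lower end of the Asns bar in F2 lying below 0. Cars lies between 1351 and 1553 in F3, above every AL and F2 sample, while Atf3 spans 4838 to 14970 in AL and 3964 to 4664 in F3.

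Atf4 (ENSRNOG00000017801) encodes the central factor of the response, and its mRNA differed little between groups. In AL it was counted at 16682, 15989 and 12618 normalized counts in samples i, j and k (mean 15096 ± 2174, SD). In F1 it stood at 14110, 14334 and 13196 (13880 ± 603), and in F2 at 16103, 20853 and 15627 (17528 ± 2889). In F3 the samples gave 12809, 14087 and 15307 (14068 ± 1249). The AL samples thus overlapped with each fasted group, and the highest of the 12 values was that of F2 j.

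The LFC of Atf4 against AL was -0.12 ± 0.12 in F1 (adjusted p = 0.635), 0.22 ± 0.12 in F2 (adjusted p = 0.503; 0.072 without F2 j) and -0.10 ± 0.12 in F3 (adjusted p = 0.670). The 95% confidence interval in F3 reached from -0.37 to 0.16. Between fasted groups, every F2 sample was above every F1 and F3 sample, with an LFC of 0.34 ± 0.12 in F2 against F1 (adjusted p = 0.182) and -0.32 ± 0.12 in F3 against F2 (adjusted p = 0.150). Neither difference passed the threshold, and without F2 j they came to 0.19 and -0.17.

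Atf3 (ENSRNOG00000003745) encodes a stress-induced factor of the same family that mostly represses transcription and is itself a target of ATF4. In AL its samples were widely spread, with 14970 normalized counts in i, 9192 in j and 4838 in k (9667 ± 5083, SD). In F1 they gave 6438, 5692 and 3726 (5285 ± 1401), and in F2 7148, 11622 and 7154 (8641 ± 2581). In F3 they gave 3964, 4138 and 4664 (4255 ± 364). The highest AL sample was 3.09 times the lowest, the F3 samples lay close together, and all 3 of them were below the lowest AL sample.

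Atf3 fell by 56.0% in F3 against AL (LFC -1.18 ± 0.35, 95% confidence interval -1.94 to -0.43, adjusted p = 0.0462). The call lay near the threshold. It held in 11 of 23 alternative settings, with adjusted p from 0.00556 to 0.183, and was lost without F2 j (LFC -1.18, adjusted p = 0.0733), without AL i, the highest sample (LFC -0.71, adjusted p = 0.183), and without AL j, F2 i, F2 k or any one of the F3 samples (LFC -1.25 to -1.14, adjusted p = 0.0565 to 0.139). It was also lost when only the 6 samples compared were fitted (adjusted p = 0.157). At 1 day the LFC was -0.87 ± 0.34 (adjusted p = 0.173), which came to -0.40 without AL i (adjusted p = 0.573) and -1.19 without AL k (adjusted p = 0.0323), and at 2 days -0.16 ± 0.34 (adjusted p = 0.886; -0.44 without F2 j). Against F2, Atf3 in F3 gave an LFC of -1.02 ± 0.34 without overlap between the groups (adjusted p = 0.107), and -0.75 without F2 j (adjusted p = 0.395). That difference was called in 3 of 23 settings, without AL i (adjusted p = 0.0483), without AL k (adjusted p = 0.0328) and with only the 6 samples compared (adjusted p = 0.0347).

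Atf5 (ENSRNOG00000020060), another ATF4 target and family member, had the closest AL samples of the 7 genes, at 495, 490 and 469 normalized counts (484 ± 13.8, SD). The fasted samples ranged from 404 to 602 in F1, from 470 to 678 in F2 and from 415 to 567 in F3. Each fasted group overlapped with AL. The LFC against AL was 0.10 ± 0.16 in F1 (adjusted p = 0.781), 0.20 ± 0.16 in F2 (adjusted p = 0.657; 0.034 without F2 j) and -0.02 ± 0.16 in F3 (adjusted p = 0.960), with an interval of -0.37 to 0.34 in F3.

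Atf6 (ENSRNOG00000024632), the endoplasmic reticulum factor, gave 2143, 2284 and 2328 normalized counts in AL samples i, j and k (2252 ± 96.5, SD) and 2561, 2469 and 2410 in F1 (2480 ± 76.1). In F2 it gave 2398, 1654 and 2433 (2161 ± 440), and in F3 2723, 2627 and 2499 (2616 ± 112). All F1 and F3 samples were above the highest AL sample, and F2 j was the lowest of the 12. The LFC was 0.14 ± 0.11 in F1 (adjusted p = 0.541), -0.06 ± 0.11 in F2 (adjusted p = 0.872; 0.10 without F2 j) and 0.22 ± 0.11 in F3 (adjusted p = 0.257), and none was called. Since all samples share the estimate of the spread, the F3 difference depended on F2 j, without which it had the same LFC of 0.22 and an adjusted p of 0.0147.

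Asns (ENSRNOG00000007546), the gene most often used as a readout of ATF4, was barely detected. It had 10, 4 and 5 reads in AL samples i, j and k, 10, 4 and 7 in F1, 3, 7 and 28 in F2, and 11, 4 and 6 in F3. All samples but F2 k thus had 11 reads or fewer. The LFC was 0.18 ± 0.76 in F1 (adjusted p = 0.925), 1.00 ± 0.69 in F2 (adjusted p = 0.585) and 0.10 ± 0.76 in F3 (adjusted p = 0.958). The interval in F3 ran from -1.54 to 1.73, so changes of Asns within that range were not excluded at this depth. Reads that matched more than once in the genome had been removed before counting, and how many came from Asns is unknown.

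Cars (ENSRNOG00000020651), which loads cysteine on its tRNA, gave the lowest adjusted p of the 7 genes. Samples i, j and k stood at 961, 1156 and 1062 normalized counts in AL (1059 ± 97.5, SD), at 1216, 1407 and 1135 in F1 (1253 ± 140), at 987, 1160 and 1111 in F2 (1086 ± 89.0), and at 1424, 1351 and 1553 in F3 (1442 ± 102). The F3 samples were all above the AL and F2 samples, while those of F1 overlapped with every other group. The order of the means was AL, F2, F1 and F3, in which neighbours overlapped.

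Cars rose by 36.2% in F3 against AL (LFC 0.45 ± 0.10, 95% confidence interval 0.23 to 0.66, adjusted p = 0.00955), and this call held in 23 of 23 alternative settings, with a highest adjusted p of 0.0423. It was also called in F3 against F2, with an LFC of 0.41 ± 0.10 (adjusted p = 0.0286; 0.46 and 0.0255 without F2 j), a comparison in which 5.94% of all genes and 1 of the 7 were called. That call held in 18 of 23 settings and was lost without F2 i, F2 k, F3 i or F3 k (adjusted p = 0.0789, 0.0511, 0.0924 and 0.0929) and when only the 6 samples compared were fitted (adjusted p = 0.0559). In F1 the LFC was 0.24 ± 0.10 (adjusted p = 0.177) and in F2 0.04 ± 0.10 (adjusted p = 0.912).

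Aars (ENSRNOG00000018404), which loads alanine on its tRNA, had its group means in the same order, AL, F2, F1 and F3, with smaller LFCs than Cars in F1 and F3. It gave 3737, 4120 and 4019 normalized counts in AL (3958 ± 199, SD) and 4469, 4532 and 4137 in F1 (4380 ± 212). In F2 it gave 4034, 4322 and 4028 (4128 ± 168), and in F3 4690, 4473 and 4528 (4564 ± 112). All F1 and F3 samples were above all AL samples, with the lowest F1 sample only just so, and F2 overlapped with AL.

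The LFC of Aars against AL was 0.15 ± 0.07 in F1 (adjusted p = 0.245), 0.06 ± 0.07 in F2 (adjusted p = 0.757) and 0.21 ± 0.07 in F3 (adjusted p = 0.0681). The difference in F3, of 15.3%, was not called, although its interval of 0.06 to 0.35 excluded 0 before the correction for multiple tests. It passed the threshold in 5 of 23 alternative settings, with an adjusted p of 0.0250 without F2 j and of 0.0155 by DESeq2.

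**Figure D2:**
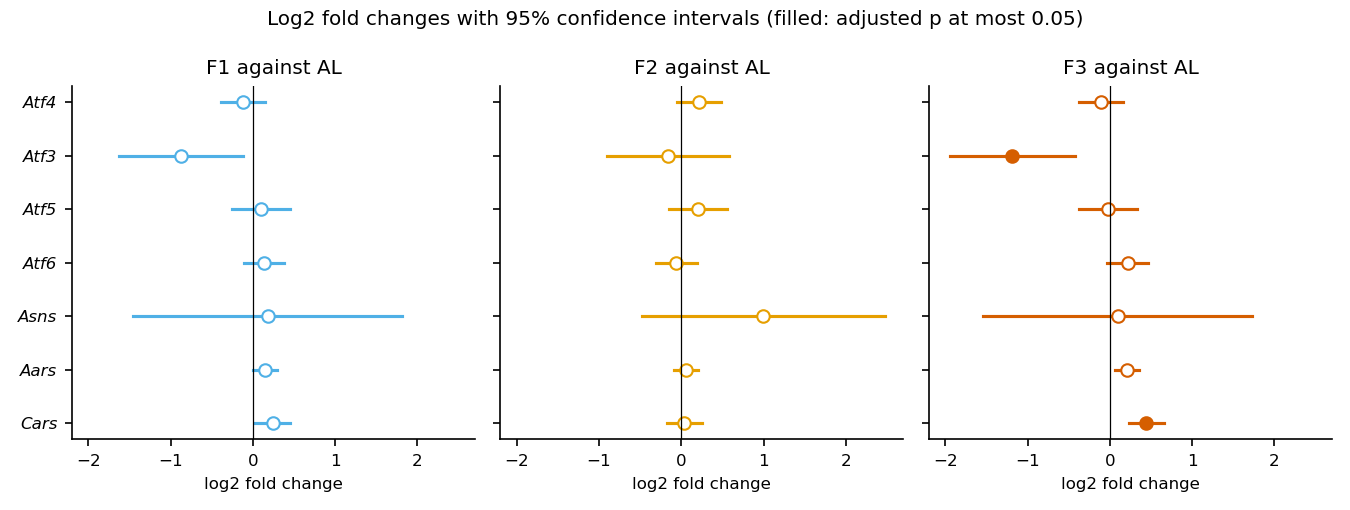
Log2 fold change (horizontal axes) of each of the 7 genes in F1, F2 and F3 against AL, with points for the estimate, lines for the 95% confidence interval and filled points for an adjusted p of at most 0.05. In F3 the interval of Cars runs from 0.23 to 0.66 and that of Atf3 from -1.94 to -0.43, and the intervals of Asns are the widest in each comparison.

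Complete separation of the groups was counted as well. In F3 against AL the samples of 4 of the 7 genes did not overlap (Cars, Aars and Atf6 higher, Atf3 lower), where 35.6% of all genes did not overlap. In F1 against AL this held for 2 of the 7 (Aars and Atf6), where the share of all genes was 28.7%, and in F2 against AL for none, where it was 15.5%. Between fasted groups the share of all genes without overlap was not counted, so no count of the 7 is given there. At an unadjusted p under 0.05, 2, 0 and 3 of the 7 differed in F1, F2 and F3, beside 20.6%, 12.8% and 26.0% of all genes.

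Between fasted groups, none of the 7 was called in F2 against F1, where 1.43% of all genes were called. In F3 against F1, none was called by edgeR and the share of all genes called was 0%, with 579 genes at an unadjusted p under 0.05 (0 of the 7), 24 genes called by DESeq2 and 9 when only the 6 samples compared were fitted. The LFC of Cars in that comparison was 0.20 ± 0.10 with an interval of -0.01 to 0.41, and that of Atf3 was -0.31 ± 0.34 with an interval of -1.06 to 0.44.

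**Figure D3:**
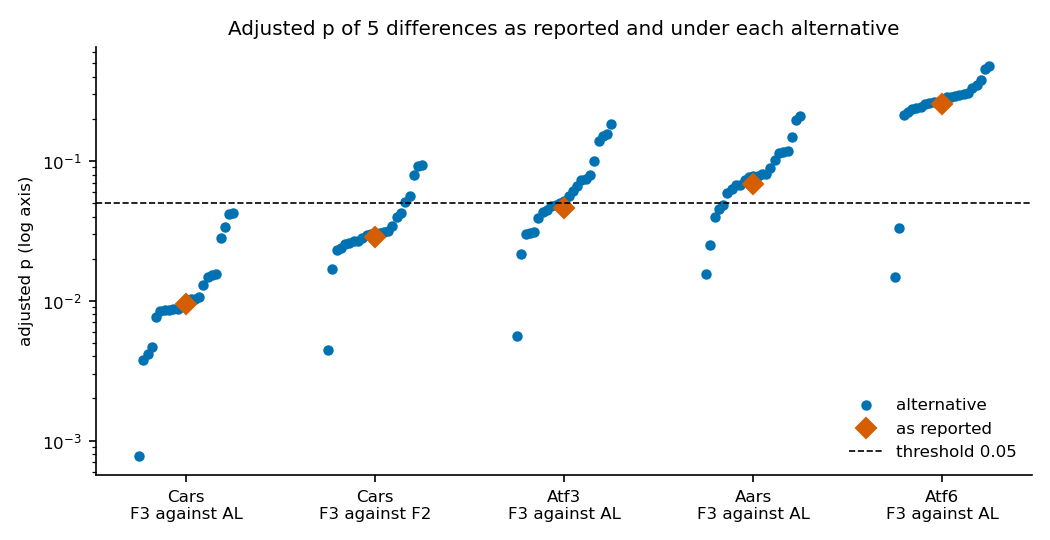
Adjusted p (vertical axis, log scale) of 5 differences (horizontal axis) as reported (diamonds) and under each of 23 alternative settings (circles), with the threshold of 0.05 as a dashed line. All values of Cars in F3 against AL lie under the line, up to 0.0423, whereas those of Atf3 lie on both sides of it, from 0.00556 to 0.183.

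The 7 genes were also compared with one another over the 12 samples, on log2 CPM (reads scaled to library size), as 21 pairs whose permutation p-values (100000 resamples) were adjusted together. Aars and Cars went together most closely, with a Pearson r of 0.91 (adjusted p = 0.00042) and a Spearman rho of 0.95 (adjusted p = 0.00042). The r was 0.88 without AL i and F3 i, the samples farthest from the median of Aars, and 0.76 for deviations from the group means. Both genes were read in the same libraries under one scaling.

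Atf3 and Atf4 also went together from sample to sample, with r = 0.80 (adjusted p = 0.0109) and rho = 0.85 (adjusted p = 0.00798). The r was 0.76 without AL i and F2 j, and 0.86 for deviations from the group means, so the samples of one group differed from each other along the same line. Atf4 and Atf6 went in opposite directions, with r = -0.83 (adjusted p = 0.0266) and rho = -0.62 (adjusted p = 0.118). That r was -0.77 without AL k and F2 j but -0.54 when F2 j alone was left out, so its size rested in part on F2 j. For deviations from the group means the r of Atf4 and Atf6 was -0.77. Atf3 and Atf6 gave r = -0.71 (adjusted p = 0.0370) and rho = -0.71 (adjusted p = 0.0628), with an r of -0.55 without AL i and F2 j and -0.76 without F2 j alone. For deviations from the group means their r was -0.50. The permutations moved samples across groups, so the p-values of all pairs also take in differences between group means. The remaining 17 pairs had an adjusted p over 0.05 for r.

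**Figure D4:**
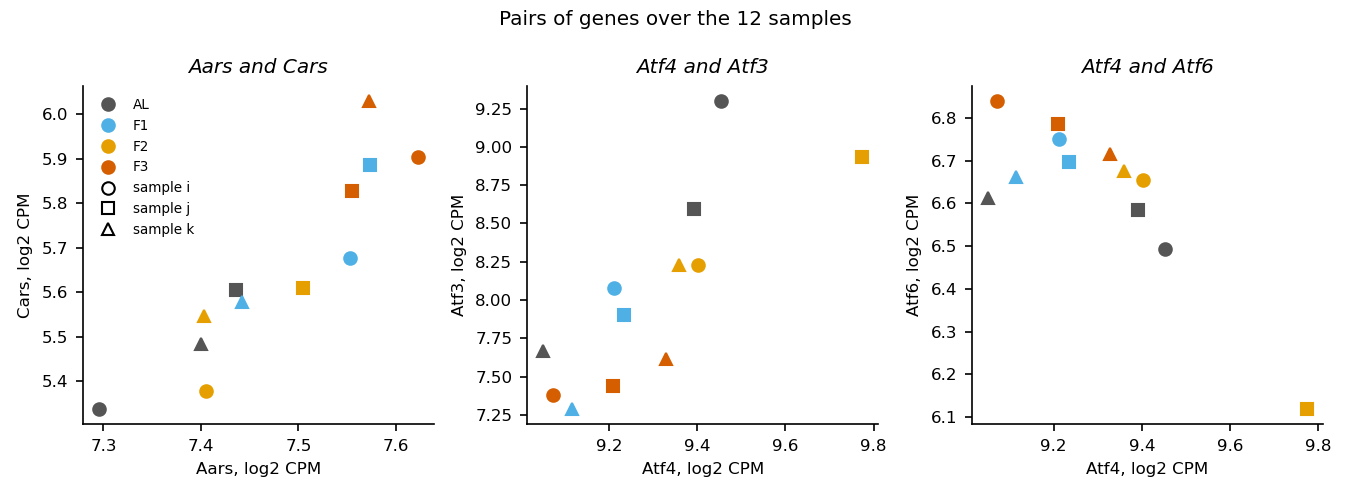
Log2 CPM of Cars against Aars, Atf3 against Atf4 and Atf6 against Atf4 in the 12 samples, with colours for the groups and symbols for samples i, j and k. Aars and Cars lie along one rising line (r = 0.91) with the F3 samples at its upper end, and F2 j is the lone point at the lower right of the plot of Atf4 and Atf6.

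Among 1263 genes with a symbol and a mean of at least 100 normalized counts, the gene whose pattern over the 12 samples was most like that of Cars was Aars (r = 0.91). The next were a gene listed under a clone name (r = 0.89) and Agpat4 (r = 0.88), which encodes an acyltransferase of phospholipid synthesis. For Atf3 they were Btg1 (r = 0.88), which encodes an antiproliferative factor, a gene listed under a clone name (r = 0.87) and Bambi (r = 0.85), which encodes a pseudoreceptor of TGF-β signalling. These values describe the 12 samples and were given no test. The symbol lists were truncated, and 2043 of the 13050 genes tested had a symbol. Of 23 cytosolic synthetases and cofactors 4 had one, so the others could not be ranked here.

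Other genes of the pathway could be followed only in part, because the symbols came from incomplete lists and 2043 of the 13050 genes tested had one. Of 20 ATF and CREB family genes 9 could be tested, and Atf3 alone was called in F3 against AL, where their median LFC was -0.02. The other family members tested were Atf1, Atf2, Atf6b, Atf7 and Batf, and none was called in any fasted group against AL. None of 16 genes for the eIF2α kinases, the phosphatase subunits and eIF2B could be tested, so the step upstream of ATF4 was not analysed here.

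Of 14 genes for amino acid synthesis and one-carbon metabolism 3 could be tested, and none was called. Beside Asns they were Cbs, which makes cystathionine from homocysteine and serine, with an LFC of -0.15 ± 0.35 in F3 (adjusted p = 0.842), and Bcat1, a branched-chain transaminase, with -0.88 ± 0.61 (adjusted p = 0.402). Of 9 amino acid carriers known as ATF4 targets 2 could be tested, and they moved in opposite directions. Slc1a4, the exchanger of alanine, serine and cysteine, was higher in F3 than in AL with an LFC of 1.09 ± 0.27 (adjusted p = 0.0213), from a mean of 479 to 1016 normalized counts. Slc38a2, the carrier of small neutral amino acids, fell by 0.35 on the log2 scale (SE 0.11, adjusted p = 0.0464). Both carriers had an identifier because the study listed them among its changed transporters in these samples, so their calls are not independent evidence.

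Of 23 cytosolic synthetases and cofactors 4 could be tested, of which Cars was called in F3 against AL. Aimp1 and Aimp2, scaffold proteins of the multi-synthetase complex, had LFCs of 0.04 ± 0.10 (adjusted p = 0.873) and 0.09 ± 0.09 (adjusted p = 0.628). Of 17 mitochondrial synthetases Aars2 and Cars2 could be tested and neither was called, with LFCs of 0.03 ± 0.10 (adjusted p = 0.908) and -0.44 ± 0.16 (adjusted p = 0.0854) in F3. Cars2 thus had a negative LFC in the comparison in which its cytosolic counterpart was called higher.

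Of 22 genes for ATF6 and chaperones of the endoplasmic reticulum, Calr and Canx could be tested. Calr, which encodes the calcium-binding chaperone calreticulin, was lower in F3 than in AL with an LFC of -0.37 ± 0.07 (adjusted p = 0.00554), and Canx, which encodes calnexin, gave -0.08 ± 0.08 (adjusted p = 0.599). Of 25 immediate early genes, which respond within minutes to stimuli that include handling of cells, 4 could be tested. Atf3 was called, and Btg1, Btg2 and Arc were not, with LFCs in F3 of -0.31 ± 0.17 (adjusted p = 0.295), -0.0022 ± 0.18 (adjusted p = 0.996) and -0.17 ± 0.38 (adjusted p = 0.835).

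Markers of other cells were set beside these results. The summed level of 3 pericyte and smooth muscle markers ranged from 1908 to 4372 normalized counts in AL and from 1689 to 4443 in F3. It ranged from 2066 to 2365 in F1 and from 2451 to 4744 in F2, without overlap. The part of these cells in the differences between F1 and F2 was not tested. The summed level of 6 microglia markers ranged from 61.7 to 96.7 in AL and from 57.6 to 134 in F3. The 1 astrocyte marker tested, Aldoc, ranged from 1825 to 2155 in AL and from 1545 to 1588 in F3, without overlap (LFC -0.34 ± 0.13, adjusted p = 0.111), and its part in the changes of Cars and Atf3 was not tested. The endothelial marker Slc2a1, the glucose carrier, was called higher in F3 (LFC 0.52 ± 0.09, adjusted p = 0.00194), while Pecam1 had an LFC of 0.03 ± 0.07 (adjusted p = 0.825). The other endothelial markers tested were not called in F3, with LFCs of 0.01 ± 0.09 for Abcb1a (adjusted p = 0.964), 0.23 ± 0.12 for Abcg2 (0.266) and -0.05 ± 0.11 for Bsg (0.821). The study also named Slc2a1 among its changed transporters in these samples, so its call is not independent evidence.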

How the data were processed

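Messenger RNA of CECs from 12 samples (48 technical replicates) was sequenced with a stranded library kit. The authors discarded short and low-quality reads, mapped the rest with STAR, kept only reads with a single match and assigned them to the exons of each gene with HTSeq-count (version 0.5.3 per the labels). The deposited values are the resulting raw counts per gene, not normalized. The strand setting was not given in the sources used here, so reads of overlapping antisense genes cannot be told apart.

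Technical replicates a to d were summed per sample. Groups followed the titles and the treatment of each sample. Of 32624 listed features, 13050 had 1 read or more in every sample and were fitted in R 4.3.3 with edgeR 4.0.16 (TMM scaling, robust dispersion and quasi-likelihood estimation), in 1 model of 12 samples with 4 group means. The Benjamini-Hochberg adjustment covered every gene tested. This design keeps the gene filter of the study and replaces its DESeq2 test, which was an alternative here (version 1.42.0). A normalized count is the count over the effective library size after TMM scaling, times the mean effective library size, and log2 CPM used a prior count of 2. On simulated data for F3 against AL with 12817 genes, 74% of genes changed 1.5-fold and 97% of those changed 2-fold were recovered, and 6.04% of calls were unchanged genes. The changed genes had a mean of at least 100 reads, and counts were drawn from the fitted dispersions with no other group difference. The rates do not cover Asns (mean 8.2 normalized counts). They were not split by variability, which was high for Atf3 (biological coefficient of variation 28.8%, median of all genes 10.7%). The samples of a group are independent experiments, and p-values measure the spread between them.

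The alternatives were other scalings, other filters on low counts, a replicate block, a fit of only the 6 samples compared, leaving out each sample or technical replicate d of F1 sample k, DESeq2, and, added after seeing the data, a fit without robust estimation and the likelihood ratio test of DESeq2. Pairs of genes were tested by permutation of samples in Python 3.11.15. Named genes were the 7 genes, up to 4 called genes of each list with a mean of at least 100 normalized counts (any gene of a list with 5 or fewer tested), and the 3 genes most like each called member. The 7 genes and the lists were chosen with earlier results of these data known. Symbols came from the study's supplementary tables.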

Additional observations from a re-analysis of the deposited data

Results flagged for a closer look

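The LFC of Cars in F3 against F2 was 0.41 ± 0.10 (SE, n = 3 samples a group, edgeR adjusted p = 0.0286). It drew attention because the effects of 2 lengths of fast against the same AL samples differed in a test of that difference itself. The call held in 18 of 23 alternative settings, with a highest adjusted p of 0.0929. All 3 F3 samples were above all 3 F2 samples, and the share of all genes without overlap was not counted in that comparison. No explanation was tested. Single outlying samples were not tested in groups of 3, and F2 j, AL i in Atf3 and F2 k in Asns were given in the report with their values only.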

How the results depend on the processing

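Of 160 counts of called genes among the 7 recomputed under the alternatives, 139 stayed within 1.5 times the reported count. These include counts of 0 that stayed 0, as the reported count was 0 in F1 and F2 against AL and in F2 and F3 against F1. They also include counts whose genes had changed, so the share does not measure how stable single calls were. Of 960 single LFCs 22 changed sign, each on leaving out 1 sample. The 2 genes called in F3 against AL became 1 under upper-quartile scaling (Atf3 at an adjusted p of 0.0611), with no filter on low counts (0.152) and with a replicate block (0.0515). With only the 6 samples compared they became Atf6 (0.0330), Aars (0.0397) and Cars, and Aars was added with at least 10 reads in each sample (0.0481), with the filterByExpr filter (0.0452) and by DESeq2 (0.0155). The joint test called 2 genes instead of 1 by the likelihood ratio test of DESeq2, chosen after seeing the data. Leaving out each sample in turn gave 0 to 1 called genes in F1 against AL, 1 to 3 in F3 against AL, 0 to 2 in F3 against F2 and 0 to 2 in the joint test. The 3 called in F3 without F2 j were Atf6, Aars and Cars. The 1 in F1 was Atf3 without AL k (adjusted p = 0.0323), and Cars left the joint test without F3 i (0.0713) or F3 k (0.0841).

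The LFCs that changed sign ranged, over the samples left out, from -0.49 to 0.30 for Atf3, -0.15 to 0.10 for Atf6 and -0.026 to 0.10 for Cars in F2 against AL, and from -0.039 to 0.083 for Atf4 in F3 against F1. For Atf5 they ranged from -0.019 to 0.25 in F1 against AL, -0.15 to 0.073 in F3 against AL and -0.067 to 0.22 in F2 against F1. For Asns they ranged from -0.16 to 0.60 in F1, -0.35 to 1.46 in F2 and -0.35 to 0.52 in F3 against AL, from -0.53 to 1.28 in F2 against F1, -1.37 to 0.44 in F3 against F2 and -0.53 to 0.26 in F3 against F1. Asns was not tested with at least 10 reads in each sample. The cause of these changes was not tested.

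Over all genes, F2 against AL gave 112 calls, 359 by DESeq2 and 0 when only the 6 samples compared were fitted (1186 at an unadjusted p under 0.05). F2 against F1 gave 186, 616 and 56 and, with the block, 108. F3 against F2 gave 775, 1242 and 262, and the joint test 1321 and by DESeq2 2090. Leaving out each sample in turn gave 308 (without F1 j) to 1451 (without F2 j) in F1 against AL, 35 (without AL k) to 162 in F2 and 792 (without F3 i) to 2368 (without F2 j) in F3 against AL, 0 (without F1 j, by edgeR, with 1515 at an unadjusted p under 0.05) to 217 in F2 against F1, 164 (without F3 i) to 783 in F3 against F2, and 739 (without F3 i) to 1784 (without F2 j) in the joint test. Samples with the same replicate letter in different groups were at most weakly alike. Their deviations from the group means had correlations of -0.0172 to 0.139 (median 0.0288), 2 of 18 over 0.1. For samples with different letters the correlations ran from -0.193 to 0.204 (median -0.0252), 1 of 36 over 0.1. Whether the letters mark paired samples was not tested. With the block Atf3 lost its call in F3 against AL (adjusted p = 0.0515), and no other gene of the 7 changed its call.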
